A study of Mus musculus with 16 samples.

Results

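CD41 positive cells were compared with CD41 negative cells at day 3.5 of the differentiation of mouse embryonic stem (ES) cells. CD41 is the alpha IIb integrin chain, encoded by Itga2b, and the question was which genes set the cells that carry it apart from CD41 negative cells. The comparison was made of 4 arrays, 2 of CD41 positive and 2 of CD41 negative cells, out of 16 in the series, and the arrays were chosen by their labels and not by any measured value. All cells came from CCE, a single mouse ES cell line for which the labels give no engineered allele, and which formed embryoid bodies after leukemia inhibitory factor (LIF) was withdrawn. The embryoid bodies were dispersed, fixed in a mixture of ethanol and acetic acid, stained with antibody and sorted by flow cytometry. The study describes the CD41 positive cells as a subset of the VEGF-R2 positive cells. It used the CD41 negative cells as their control and also calls them negative for VEGF-R2. They are not a defined cell type. Duplicates came from separately conducted experiments. CD144 positive and CD144 negative cells of the same day and line, again 2 arrays each, serve as a second sort for comparison. Whether both sorts were made from the same cultures is not stated. CD144 is VE-cadherin, the adhesion molecule of endothelial cell junctions.

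In the mouse yolk sac and in embryoid bodies, the earliest blood cells arise from mesoderm that carries VEGF-R2, close to the earliest endothelial cells. Primitive red cells are made in this wave together with megakaryocytes and macrophages, and they carry embryonic globins in place of the adult ones. CD41 appears on these progenitors when they enter the blood lineage and later remains on megakaryocytes and platelets. The transcription factors TAL1, LMO2, GATA1, KLF1 and RUNX1 are the best known regulators of this step, and GATA1 and its relatives bind DNA at short sites with the core GATA.

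All values below are signals of probe sets (groups of short probes to the 3' end of a transcript) on Affymetrix 3' arrays, in arbitrary units and scaled by the authors to the same trimmed mean on each array. Fold changes are given on the log2 scale after 6.02 was added to each signal, which understates the change of dim genes. A positive value means a higher signal in CD41 positive cells. A probe set was called when its p-value in limma, adjusted by Benjamini-Hochberg over all 45037 probe sets tested, was under 0.05, and the spread was pooled over all 16 arrays. Where a gene had several probe sets, the one with the highest average signal over the 16 arrays stands for it, which left 18193 genes. Other probe sets of a gene, among them some of Itgb3, Epcam and Id4, were not always called, and only part of them are given.

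The 2 CD41 positive arrays were less alike than the 2 CD41 negative arrays: over the tested probe sets, Spearman's coefficient between duplicates was 0.872 for CD41 positive cells and 0.955 for CD41 negative cells. The 18 probe sets of the hybridisation controls, bacterial and phage transcripts that are added in a fixed amount after labelling, had geometric means of 7288 and 8129 on the CD41 positive arrays, against 2936 and 2986 on the CD41 negative arrays. That is a log2 difference of 1.38, and it was 1.77 between the CD144 positive and CD144 negative arrays. The sort and whatever raised these controls cannot be told apart. The ratio of the 3' to the 5' probe set, a sign of RNA length, was close in both sorts, 2.13 and 2.19 for Actb on the CD41 positive arrays and 2.22 and 1.93 on the CD41 negative arrays. CD41 positive replicate 2 carried more signal of endothelial and pluripotency genes than CD41 positive replicate 1. The summed signal of the 28 endothelial genes listed for this work was 32512 in CD41 positive replicate 1 and 64382 in CD41 positive replicate 2, and that of the 23 pluripotency genes was 15493 and 28277, while the globin sum ran the other way, 100369 and 86094. The part of this difference in each result was not tested.

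Of the 45037 probe sets, 6071 were called higher in CD41 positive cells (13.5%) and 7138 lower (15.8%), together 29.3%. Without CD41 negative replicate 2, 4014 were called higher. The samples are bulk, so that fewer cells of a type and less RNA per cell cannot be told apart. By gene, 19.3% were called higher and 17.3% lower, together 36.6%, and the median log2 fold change was 0.19. Large changes ran in both directions: 1666 called probe sets were above 2 on the log2 scale and 2475 below -2. The most extreme changes were mostly upward, with 99 called probe sets above 5 and 25 below -5. Of the probe sets called higher, 2602 exceeded the log2 difference of 1.38 seen in the hybridisation controls, and 4025 of those called lower lay beyond -1.38. In 28741 probe sets (63.8%) the signals of the 2 sorts did not overlap, so an absence of overlap with 2 arrays a group is common here. A signal was highest of all 8 populations of the series in CD41 positive cells for 2873 (47.3%) of the 6071 probe sets called higher. These probe sets were selected for a high signal in CD41 positive cells. The share over all 45037 was not counted, so 47.3% is no measure of specificity.

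**Figure D1:**
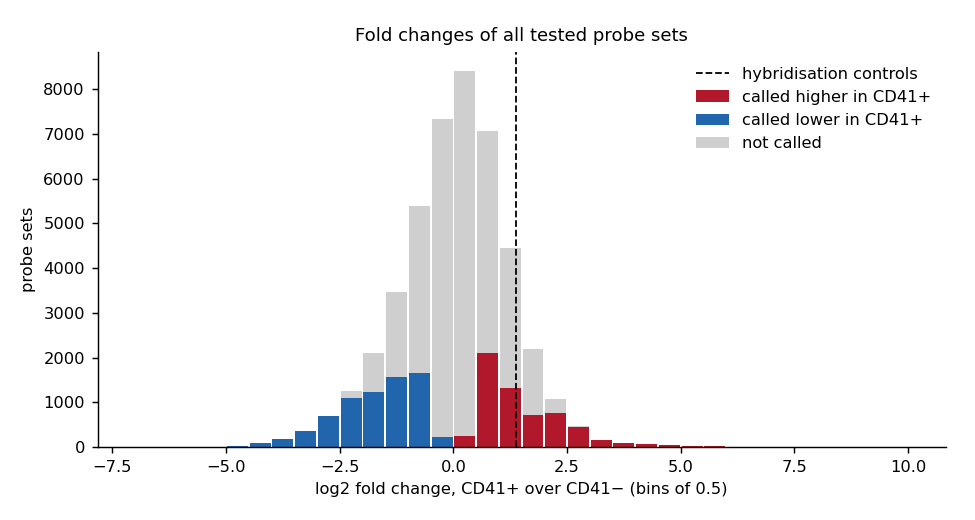
Number of tested probe sets (vertical axis) in bins of 0.5 of the log2 fold change of CD41 positive over CD41 negative cells (horizontal axis), stacked by call. The dashed line marks the log2 difference of the hybridisation controls, 1.38, and 2602 of the 6071 probe sets called higher lie to its right.

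The sort marker followed its label. Itga2b had signals of 7523 and 5299 in CD41 positive cells, against 227 and 195 in CD41 negative cells (log2 fold change 4.87, standard error 0.24, adjusted p = 2.81e-10). The 2 sorts did not come near each other for this gene. Kdr, the gene of VEGF-R2, had 1675 and 3335 in CD41 positive cells, against 53.5 and 95.1 in CD41 negative cells (log2 fold change 4.93, standard error 0.27, adjusted p = 9.42e-10). Cdh5, the gene of CD144, had 828 and 1852 in CD41 positive cells, against 27.7 and 20.6 in CD41 negative cells (log2 fold change 5.38, standard error 0.35, adjusted p = 6.91e-09), and for both of these genes the higher signal came from CD41 positive replicate 2. The transcripts of all 3 sort markers of the series were thus higher in CD41 positive cells. The study describes the positive cells as VEGF-R2 positive and the negative cells as VEGF-R2 negative, so the difference in Kdr goes with these labels. For any gene, CD41 status and VEGF-R2 status cannot be told apart here. The study names Cdh5 among the genes it chose from arrays of the series. Another probe set of Cdh5 was not called (log2 fold change 1.44, adjusted p = 0.07).

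The embryonic globins were among the genes with the largest rise. Hba-x, the embryonic zeta-like alpha globin, had signals of 40893 and 32212 in CD41 positive cells, against 60.8 and 43.6 in CD41 negative cells (log2 fold change 9.30, standard error 0.29, adjusted p = 1.19e-12). Hbb-bh1, an embryonic beta-like globin, had 55982 and 49236 in CD41 positive cells, against 292 and 207 in CD41 negative cells (log2 fold change 7.70, standard error 0.23, adjusted p = 7.92e-13), and its 3 probe sets were between 7.70 and 7.89 on this scale. Hbb-y, the epsilon-like embryonic globin, had 3255 and 4535 in CD41 positive cells, against 3.0 and 16.2 in CD41 negative cells (log2 fold change 8.09, standard error 0.41, adjusted p = 4.40e-10). In all 3 genes both CD41 positive arrays lay far above both CD41 negative arrays, and the CD41 negative signals of Hbb-y were near the value added before the log2. With 32 added instead, the log2 fold change of Hbb-y was 6.56 and that of Hba-x 8.76. The adult globins gave another picture. Hba-a1 had 16.9 and 11.8 in CD41 positive cells, against 38.7 and 29.6 in CD41 negative cells, which is lower in the CD41 positive cells but did not pass the test (log2 fold change -0.98, adjusted p = 0.418). Hba-a2 had 124 and 66.3 in CD41 positive cells, against 108 and 98 in CD41 negative cells (log2 fold change -0.17, adjusted p = 0.856), with overlapping sorts. Hbb-b2 had 97.8 and 32.6 in CD41 positive cells, against 38.1 and 3.81 in CD41 negative cells (log2 fold change 1.61, adjusted p = 0.215), again with overlap. Another probe set of Hbb-b2 was called higher, with 29.3 and 13.7 in CD41 positive cells, against 0.703 and 0.857 in CD41 negative cells. The alpha and beta globins are families of similar sequence, and probes can share signal between members. Of 6 globin genes, 3 rose and none fell, against background shares of 19.3% and 17.3%. All 3, Hba-x, Hbb-bh1 and Hbb-y, had been chosen by the study from arrays of the series, and their direction is not independent evidence.

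The promoters of 2 embryonic globins, Hba-x and Hbb-y, and of 3 erythroid genes whose values follow, Alas2, Epor and Klf1, are shown because each holds a short GATA site, which is given in capitals. They were chosen for that site and do not stand for all genes that rose. The sequences are the 200 bases before the start of the transcript in RefSeq (mouse build GRCm38.p6), 5' to 3' on the strand of the gene: chr11:32276400-32276599 on the plus strand for Hba-x, chr7:103853208-103853407 on the minus strand for Hbb-y, chrX:150547217-150547416 on the plus strand for Alas2, chr9:21963577-21963776 on the minus strand for Epor and chr8:84901782-84901981 on the plus strand for Klf1. The sites searched were AGATAA and TGATAA on either strand, that is also TTATCT and TTATCA, and the 2 searched words share the stretch GATAA.
Hba-x: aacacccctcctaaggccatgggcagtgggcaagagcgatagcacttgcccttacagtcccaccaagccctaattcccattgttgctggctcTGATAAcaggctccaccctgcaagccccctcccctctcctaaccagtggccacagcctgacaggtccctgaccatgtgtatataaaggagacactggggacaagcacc
Hbb-y: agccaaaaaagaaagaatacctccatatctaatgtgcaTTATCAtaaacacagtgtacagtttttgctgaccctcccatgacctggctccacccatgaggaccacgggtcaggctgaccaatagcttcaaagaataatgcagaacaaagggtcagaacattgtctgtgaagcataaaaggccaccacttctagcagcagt
Alas2: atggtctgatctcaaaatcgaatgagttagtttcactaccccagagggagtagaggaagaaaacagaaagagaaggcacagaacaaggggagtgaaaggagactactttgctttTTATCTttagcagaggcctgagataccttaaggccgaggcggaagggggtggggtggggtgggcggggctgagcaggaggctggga
Epor: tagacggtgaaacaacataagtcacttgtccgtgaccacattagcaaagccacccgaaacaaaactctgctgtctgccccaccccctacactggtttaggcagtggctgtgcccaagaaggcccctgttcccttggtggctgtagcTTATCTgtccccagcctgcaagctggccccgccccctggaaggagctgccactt
Klf1: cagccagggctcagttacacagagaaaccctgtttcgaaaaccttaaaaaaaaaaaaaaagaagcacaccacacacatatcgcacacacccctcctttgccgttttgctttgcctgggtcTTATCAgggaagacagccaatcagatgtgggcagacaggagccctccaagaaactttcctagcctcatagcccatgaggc
Counted back from the start of the transcript, the site begins at -108 in Hba-x, -162 in Hbb-y, -86 in Alas2, -54 in Epor and -80 in Klf1, and each window holds 1 such site.

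**Figure D2:**
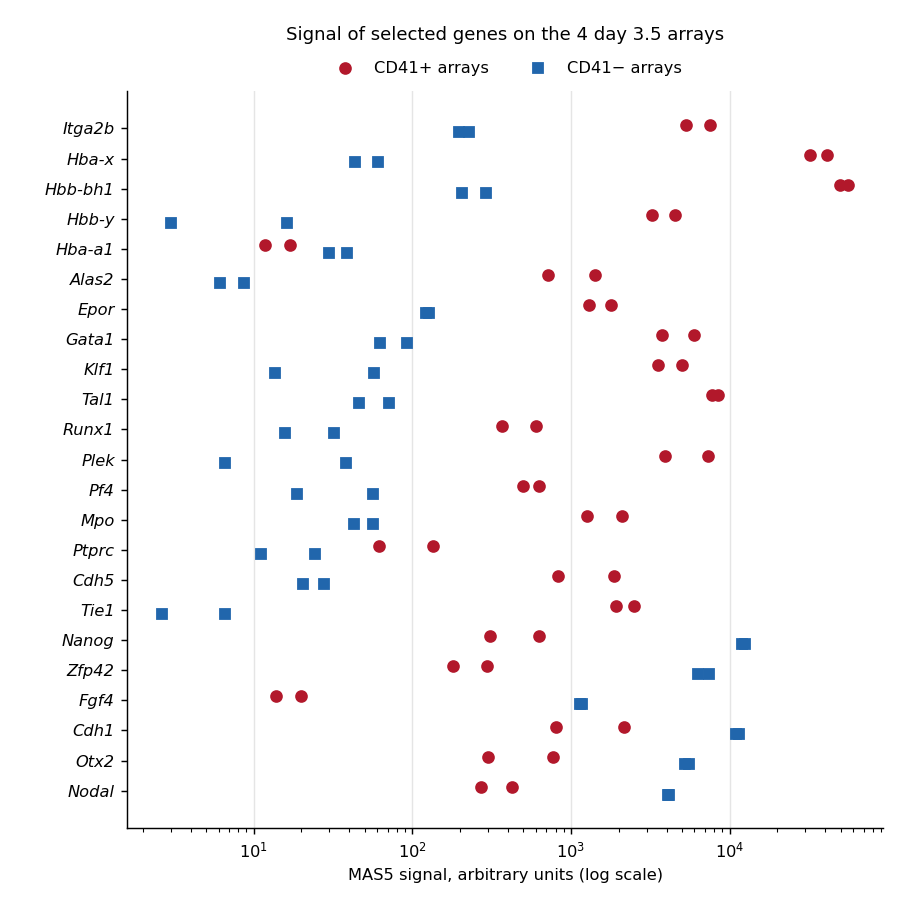
Signal of each array (points, log axis, arbitrary units) for 23 genes, with the 2 CD41 positive arrays as red circles and the 2 CD41 negative arrays as blue squares. Embryonic globins, blood and endothelial genes lie to the right in CD41 positive cells, while Hba-a1 and, at the bottom, pluripotency, epithelial and early embryonic genes lie to the left.

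Most genes of heme synthesis rose. Of 15 genes of heme synthesis and iron uptake, 12 rose and none fell, against background shares of 19.3% and 17.3%. The list median was 1.41, against 0.19 over all genes. Alas2, the erythroid form of the enzyme that starts heme synthesis, had signals of 1415 and 716 in CD41 positive cells, against 6.12 and 8.72 in CD41 negative cells (log2 fold change 6.24, standard error 0.64, adjusted p = 1.40e-06). Its CD41 positive signals differed from each other by more than those of most genes of this list, yet both lay far above the CD41 negative ones. Slc25a37, the mitochondrial iron importer mitoferrin, had 2347 and 2098 in CD41 positive cells, against 501 and 355 in CD41 negative cells (log2 fold change 2.38, standard error 0.27, adjusted p = 4.28e-06). Alad, which makes porphobilinogen, had 4737 and 4389 in CD41 positive cells, against 1491 and 1464 in CD41 negative cells (log2 fold change 1.62). Uros, which closes the porphyrin ring, had 1883 and 1179 in CD41 positive cells, against 458 and 311 in CD41 negative cells (log2 fold change 1.96). In both genes the CD41 positive signals were well clear of the CD41 negative ones. Tmem14c, a mitochondrial membrane protein needed for heme synthesis, rose by 2.03 and Hebp1, a heme binding protein, by 2.06 on the log2 scale. When each gene was given instead by its most variable probe set, 6 of these genes rose and 1 fell. That gene was Tfrc, the transferrin receptor, named here after its values were seen. The probe set that stands for it rose by 0.53 on the log2 scale (11505 and 10858 in CD41 positive cells, against 7666 and 7783 in CD41 negative cells), and its other 2 probe sets were called lower, one of them with 285 and 94.1 in CD41 positive cells, against 831 and 1710.0 in CD41 negative cells.

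Of 20 genes listed for the red cell membrane and surface, 13 rose and 3 fell, against background shares of 19.3% and 17.3% (list median 1.85). The share that fell, 15%, was near the background. Hemgn, a nuclear protein of red cell precursors that the list also holds, had 413 and 191 in CD41 positive cells, against 1.16 and 0.971 in CD41 negative cells (log2 fold change 5.34, standard error 0.64, adjusted p = 7.33e-06). Gypc, glycophorin C, had 2087 and 1781 in CD41 positive cells, against 84.4 and 72.2 in CD41 negative cells (log2 fold change 4.52, standard error 0.25, adjusted p = 1.01e-09). Epor, which encodes the receptor for erythropoietin, had 1785 and 1290.2 in CD41 positive cells, against 123 and 127 in CD41 negative cells (log2 fold change 3.54, standard error 0.28, adjusted p = 7.46e-08), and all 3 genes were free of overlap between the sorts. Rhag, the Rh-associated glycoprotein, rose by 4.10, Epb42, protein 4.2 of the red cell skeleton, by 3.88, and Aqp1, a water channel of the red cell, by 3.82 on the log2 scale, all from CD41 negative signals under 25. Epor and Hemgn were among the genes that the study chose from arrays of the series. The 3 genes that fell were Rhd, Dmtn and Cd24a, named after their values were seen. Cd24a, a surface glycoprotein that many embryonic epithelia also carry, had 2958 and 3654 in CD41 positive cells, against 6329 and 6022 in CD41 negative cells.

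Most transcription factors of the blood lineage rose. Of 30 measured, 24 rose and 2 fell, against background shares of 19.3% and 17.3%, and the list median was 3.71. The study had chosen Klf1, Gata1, Ikzf1, Ikzf2, Ikzf3, Runx1 and Mef2c from arrays of the series. For these the direction is not independent evidence. Tal1, which is required for all blood cells, had signals of 8395 and 7787 in CD41 positive cells, against 71.5 and 45.9 in CD41 negative cells (log2 fold change 6.99, standard error 0.18, adjusted p = 2.25e-13). Its partner Lmo2, a bridging protein without DNA binding of its own, had 8188 and 6039 in CD41 positive cells, against 276 and 271 in CD41 negative cells (log2 fold change 4.65, standard error 0.20, adjusted p = 5.43e-11). Lyl1, the closest relative of Tal1, had 5107 and 4235 in CD41 positive cells, against 41.3 and 40.0 in CD41 negative cells (log2 fold change 6.64, standard error 0.22, adjusted p = 2.18e-12). In all 3 genes the duplicates lay close together and the sorts far apart. Ldb1, which joins LMO2 complexes and is found in most tissues, had 1391 and 1228 in CD41 positive cells, against 885 and 852 in CD41 negative cells (log2 fold change 0.59, adjusted p = 0.0114). Its call was lost without CD41 positive replicate 1 (adjusted p = 0.0737), CD41 negative replicate 1 (adjusted p = 0.0503) or CD41 negative replicate 2 (adjusted p = 0.0758).

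Erythroid and megakaryocytic regulators followed. Gata1 had 5986 and 3763 in CD41 positive cells, against 92.4 and 62.9 in CD41 negative cells (log2 fold change 5.85, standard error 0.30, adjusted p = 5.13e-10). Klf1, the erythroid Krüppel-like factor that drives globin and heme genes, had 5017 and 3552 in CD41 positive cells, against 57.4 and 13.5 in CD41 negative cells (log2 fold change 6.91, standard error 0.64, adjusted p = 4.42e-07). Nfe2, which acts in platelet release and globin expression, had 5333 and 3449 in CD41 positive cells, against 29 and 10.2 in CD41 negative cells (log2 fold change 7.49, standard error 0.38, adjusted p = 4.63e-10). In each of these the signal of CD41 positive replicate 1 was above that of CD41 positive replicate 2. Gfi1b, a repressor in erythroid and megakaryocytic cells, rose by 5.99, Zfpm1, the GATA1 cofactor FOG1, by 5.17, and Cbfa2t3, a corepressor of TAL1 complexes, by 6.13 on the log2 scale. Gata2, the GATA factor of progenitors, had 1013 and 1260.3 in CD41 positive cells, against 100.2 and 76.5 in CD41 negative cells (log2 fold change 3.60).

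The ETS factors Erg, Fli1, Spi1 and Etv6 rose, as did the runt factor Runx1. Erg had 1635 and 2466 in CD41 positive cells, against 6.61 and 3.33 in CD41 negative cells (log2 fold change 7.53, standard error 0.37, adjusted p = 3.19e-10), and here CD41 positive replicate 2 was the higher array. Fli1 rose by 6.07, Spi1, the myeloid factor PU.1, by 4.80 and Etv6 by 1.59 on the log2 scale. Runx1, which is needed for definitive blood, had 605 and 368 in CD41 positive cells, against 15.9 and 32.1 in CD41 negative cells (log2 fold change 4.05, standard error 0.49, adjusted p = 8.23e-06), and 4 of its 6 probe sets were called higher. Its partner Cbfb fell by 1.36 on the log2 scale, with 1396 and 1879.5 in CD41 positive cells, against 4246 and 4087 in CD41 negative cells. Runx3 had 121 and 81.2 in CD41 positive cells, against 43.7 and 53.8 in CD41 negative cells and did not pass the test (log2 fold change 0.95, adjusted p = 0.331).

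Among the Ikaros family, Ikzf1 had 2077 and 1595 in CD41 positive cells, against 149.8 and 79.8 in CD41 negative cells (log2 fold change 3.98, standard error 0.39, adjusted p = 8.99e-07) and Ikzf2 had 1893 and 1892 in CD41 positive cells, against 116 and 143 in CD41 negative cells (log2 fold change 3.81, standard error 0.25, adjusted p = 7.71e-09). Ikzf3, known from lymphoid cells, had 269 and 42.4 in CD41 positive cells, against 18.7 and 5.50 in CD41 negative cells, and did not pass (adjusted p = 0.0828). Most of its signal was in CD41 positive replicate 1, and without CD41 positive replicate 2 it passed (adjusted p = 0.0378). Mef2c rose by 3.09, Meis1 by 2.77, Gfi1 by 2.64 and Hhex by 2.60 on the log2 scale, all factors of early blood progenitors. The call of Gfi1 was lost without CD41 positive replicate 1 (adjusted p = 0.0697) or CD41 negative replicate 1 (adjusted p = 0.0757). Myb, needed for definitive but not for primitive red cells, had 3201 and 3108 in CD41 positive cells, against 2232 and 1971 in CD41 negative cells, a log2 fold change of 0.59 (adjusted p = 0.0108) that was not called without CD41 negative replicate 2 (adjusted p = 0.112). No other probe set of Myb was called, and their log2 fold changes were -0.68 and -0.10. Mafg, the small partner of NFE2, rose by 0.65 on the log2 scale. Klf3, with a log2 fold change of 0.02, and Sox6, with 1.62, did not pass the test. Another probe set of Klf3 was called lower (log2 fold change -1.08), and another of Sox6 was called higher (log2 fold change 1.71). Bcl11a, a repressor of embryonic globin genes in adult red cells, was the other member that fell, with 279 and 173 in CD41 positive cells, against 529.5 and 600.1 in CD41 negative cells (log2 fold change -1.33, standard error 0.27, adjusted p = 9.62e-04), but 1 of its 7 probe sets was called higher.

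The share of promoters with a GATA site differed between fold change classes. The promoters in RefSeq run from 250 bases before to 50 after the start, and 14452 of the 18193 genes matched at least 1. A site was present in 18.6% of all 32851 promoters and in 12.9% of those of measured genes. It was present in 23 of 61 promoters (37.7%) of genes that rose by more than 5 on the log2 scale, in 17.4% of those that rose by 3 to 5, in 18.8% at 2 to 3, in 10.8% at 1 to 2 and in 10.2% at 0 to 1. For genes not called it was 14.2%, and for genes that fell it was 11.2% beyond -2 and 7.59% between -2 and 0. The classes differ in base composition, and their median GC content was 52.7% in the most raised class and 58.3% over measured genes. Among promoters with GC under 60% the shares were 44.7% in the most raised class and 20.1% over measured genes. All 4 globin genes with a promoter in the table had a site, including Hba-a1 and Hba-a2, which were not called, and no site was found in the promoters of Itga2b, Kdr, Gata1, Lyl1, Zfpm1 and Runx1, all of which rose. Among the lists, a site was found for 8 of 14 genes of the erythroid membrane list that had a promoter. It was found for 8 of 20 megakaryocyte genes, 7 of 24 blood transcription factors, 3 of 18 myeloid and mast genes and 1 of 14 pluripotency genes. Lists that did not mainly rise also held sites, with 5 of 11 neuroectoderm, 5 of 16 cardiac and 4 of 13 endoderm genes. A missing site says only that these letters were not in the window. These shares are descriptions, since promoters of 1 gene overlap and no test was made.

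**Figure D3:**
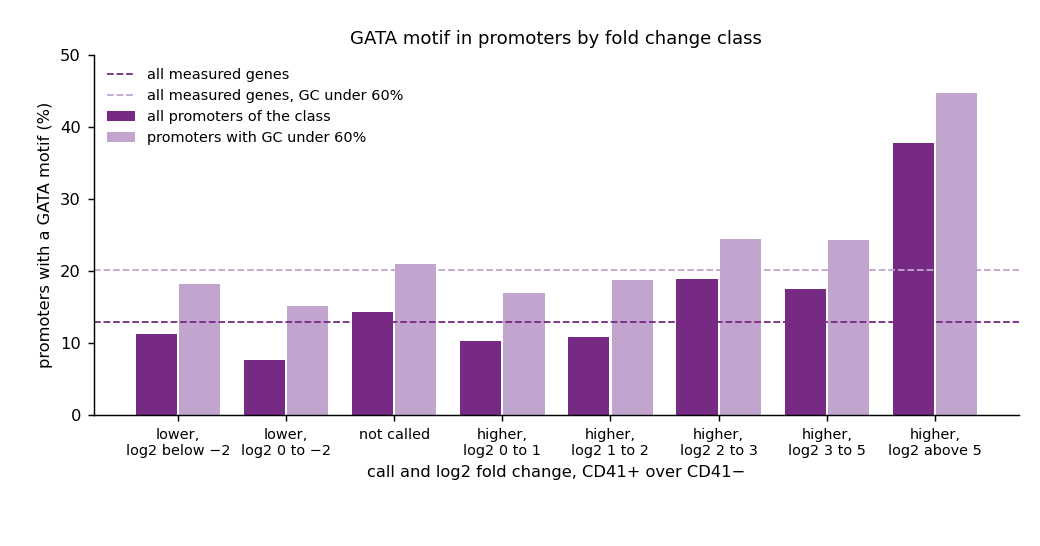
Percent of RefSeq promoters with AGATAA or TGATAA on either strand (vertical axis) by call and log2 fold change of the gene (horizontal axis), for all promoters (dark bars) and those with GC under 60% (light bars), with dashed lines at the shares over measured genes, 12.9% and 20.1%. The class above 5 reaches 37.7% and 44.7%.

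Most megakaryocyte and platelet genes rose. Of 26 measured, 18 rose and none fell, against background shares of 19.3% and 17.3% (list median 2.27). Plek, pleckstrin, the main protein kinase C substrate of platelets, had signals of 7339.5 and 3891 in CD41 positive cells, against 6.58 and 38 in CD41 negative cells (log2 fold change 7.83, standard error 0.49, adjusted p = 4.43e-09). Clec1b, the platelet receptor CLEC-2, had 1189 and 4267 in CD41 positive cells, against 9.12 and 1.41 in CD41 negative cells (log2 fold change 7.73, standard error 0.57, adjusted p = 3.33e-08), with the higher signal in CD41 positive replicate 2. Itgb3, which encodes the beta chain that pairs with CD41, had 2177 and 1654 in CD41 positive cells, against 45.8 and 2.27 in CD41 negative cells (log2 fold change 6.52, standard error 0.65, adjusted p = 8.80e-07). Fermt3, kindlin-3, which activates this integrin, had 15457 and 12331 in CD41 positive cells, against 122 and 146 in CD41 negative cells (log2 fold change 6.63). P2rx1, an ATP receptor of platelets, rose by 6.73 and Rab27b, a granule GTPase, by 4.99 on the log2 scale. All 6 genes were free of overlap. Without CD41 positive replicate 2, 1 member of the list was called lower.

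Myeloid genes rose in part. Of 23 myeloid and mast cell genes, 11 rose and 1, Cd68, fell, against background shares of 19.3% and 17.3% (list median 1.28). Mpo and Cd52 had been chosen by the study from arrays of the series. Cd68, a macrophage gene named after its values were seen, had 189 and 372 in CD41 positive cells, against 483 and 593 in CD41 negative cells, and its call was lost without CD41 positive replicate 1 or CD41 negative replicate 2. Tyrobp, the adaptor DAP12, had 1352 and 1158 in CD41 positive cells, against 23.9 and 29.2 in CD41 negative cells (log2 fold change 5.28, standard error 0.48, adjusted p = 3.52e-07). Mpo, myeloperoxidase, had 2085 and 1261 in CD41 positive cells, against 42.8 and 56.6 in CD41 negative cells (log2 fold change 4.88, standard error 0.40, adjusted p = 1.06e-07). Cd52, a leukocyte surface glycoprotein, had 995 and 798 in CD41 positive cells, against 13.8 and 21.5 in CD41 negative cells (log2 fold change 5.26, standard error 0.45, adjusted p = 1.75e-07). The sorts stayed far apart in all 3 genes. Fcer1g, the gamma chain of Fc receptors, rose by 4.66, Fcgr3 by 3.97 and Ncf4, a subunit of the phagocyte oxidase, by 3.94 on the log2 scale. Of 14 lymphoid genes 3 rose and 1 fell, against background shares of 19.3% and 17.3%, and 1 was called higher without CD41 negative replicate 1. Il7r, the interleukin 7 receptor, had 98.7 and 93.5 in CD41 positive cells, against 1.62 and 5.23 in CD41 negative cells (log2 fold change 3.46, standard error 0.73, adjusted p = 0.00147). Cd79a, a chain of the B cell receptor, had 93.5 and 59.5 in CD41 positive cells, against 14 and 10.7 in CD41 negative cells (adjusted p = 0.0448), and the call was lost whichever of the 4 arrays was left out, with an adjusted p of up to 0.183. Cd79b, its partner chain, had 155 and 238 in CD41 positive cells, against 78.5 and 63.3 in CD41 negative cells (adjusted p = 0.0177), and Blnk, an adaptor of B cells, fell, with 7.47 and 91.7 in CD41 positive cells, against 119.8 and 146 in CD41 negative cells (adjusted p = 0.0332). Cd79b was not called without CD41 positive replicate 2 (adjusted p = 0.12), CD41 negative replicate 1 (adjusted p = 0.052) or CD41 negative replicate 2 (adjusted p = 0.117), and Blnk was not called without CD41 positive replicate 1 (adjusted p = 0.501), CD41 negative replicate 1 (adjusted p = 0.0959) or CD41 negative replicate 2 (adjusted p = 0.155).

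Most signalling genes of blood cells rose. Of 29 measured, 21 rose and 1 fell, against background shares of 19.3% and 17.3% (list median 1.47). Kit, a member, had been chosen by the study from arrays of the series. Csf2rb, the common beta chain of the receptors for interleukin 3 and GM-CSF, had 2908 and 3089 in CD41 positive cells, against 31.6 and 18.7 in CD41 negative cells (log2 fold change 6.62, standard error 0.37, adjusted p = 1.35e-09). The 2 sorts lay far apart for this gene. Was, the Wiskott-Aldrich protein, rose by 4.90, Lcp2, the adaptor SLP-76, by 4.89, Btk by 4.56 and Laptm5 by 4.55 on the log2 scale. Ptprc, which encodes the pan-leukocyte antigen CD45, had 134 and 61.8 in CD41 positive cells, against 11.1 and 24.2 in CD41 negative cells (log2 fold change 2.10, adjusted p = 0.0419), and its call was lost without CD41 positive replicate 1 (adjusted p = 0.233), CD41 negative replicate 1 (adjusted p = 0.236) or CD41 negative replicate 2 (adjusted p = 0.073). Prkcb, a protein kinase C, was the 1 member that fell, with 68.5 and 90.6 in CD41 positive cells, against 199 and 187 in CD41 negative cells. It is named after its values were seen, and no member was called lower without CD41 positive replicate 1 or without either CD41 negative array.

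Of 9 eicosanoid genes, 4 rose and 1 fell, against background shares of 19.3% and 17.3%. Alox5ap, which presents arachidonic acid to 5-lipoxygenase, had 9618 and 8898 in CD41 positive cells, against 128 and 149.9 in CD41 negative cells (log2 fold change 6.0, standard error 0.20, adjusted p = 3.48e-12). Pla2g4a, the phospholipase that releases arachidonic acid, had 1207 and 931 in CD41 positive cells, against 76.4 and 83.5 in CD41 negative cells (log2 fold change 3.63, standard error 0.33, adjusted p = 3.34e-07). Ltc4s, leukotriene C4 synthase, had 457 and 478 in CD41 positive cells, against 12.8 and 7.90 in CD41 negative cells (log2 fold change 4.87, standard error 0.92, adjusted p = 5.96e-04). The sorts did not overlap in these 3 genes. Alox5 itself had 586 and 403 in CD41 positive cells, against 107 and 106 in CD41 negative cells (log2 fold change 2.13, standard error 0.53, adjusted p = 0.00574), also without overlap, and its call was lost without CD41 positive replicate 1 (adjusted p = 0.0544). Ptges, a prostaglandin E synthase, fell, with 22.7 and 24.8 in CD41 positive cells, against 94.6 and 113 in CD41 negative cells (log2 fold change -1.88, standard error 0.40, adjusted p = 0.00169).

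Endothelial genes rose nearly without exception. Of 28 measured, 27 rose and none fell, against background shares of 19.3% and 17.3% (list median 2.85). Cav2, of caveolae, was the 1 that did not pass. The study chose Tie1, Pecam1, Ednrb, Cd34, Icam2, Robo4, Cldn5, Emcn, Mmrn2, Cav2, Flt1 and Sox7 from arrays of the series. Their direction is not independent evidence. Tie1, an endothelial receptor tyrosine kinase, had 1915 and 2510.0 in CD41 positive cells, against 2.63 and 6.63 in CD41 negative cells (log2 fold change 7.72, standard error 0.34, adjusted p = 8.71e-11). Cd34, a sialomucin of endothelium and blood progenitors, had 1738 and 2754 in CD41 positive cells, against 83.9 and 66.4 in CD41 negative cells (log2 fold change 4.76, standard error 0.24, adjusted p = 4.33e-10). Pecam1, the junction protein CD31, had 930.4 and 1235 in CD41 positive cells, against 216 and 358 in CD41 negative cells (log2 fold change 1.92, standard error 0.27, adjusted p = 3.96e-05). In all 3 genes both sorts were separated and CD41 positive replicate 2 was the higher of its pair. Icam2, an adhesion molecule, had 760.4 and 2387 in CD41 positive cells, against 45.3 and 6.56 in CD41 negative cells (log2 fold change 5.74). Sox7, a SOX factor of endothelium, had 588 and 1165 in CD41 positive cells, against 40.8 and 25.7 in CD41 negative cells (log2 fold change 4.44). Esam, of cell junctions, rose by 5.10 and Ednrb, the endothelin B receptor, by 5.04 on the log2 scale. No other probe set of Ednrb was called, and their log2 fold changes were 1.41 and 0.53. The summed endothelial signal was 32512 and 64382 in CD41 positive cells, against 6953 and 6437 in CD41 negative cells, and whether these transcripts came from the blood progenitors or from endothelial cells in the gate was not tested.

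**Figure D4:**
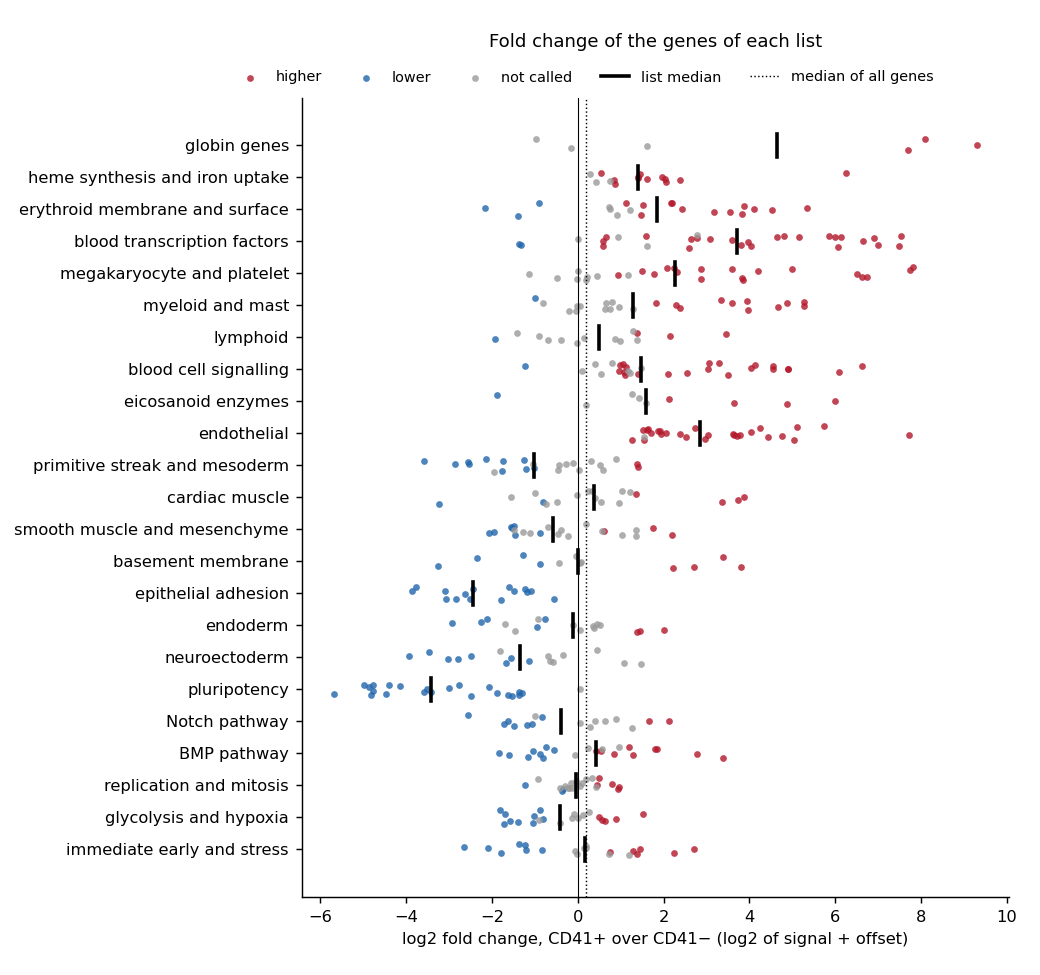
Log2 fold change of CD41 positive over CD41 negative cells (horizontal axis) for each gene (points) of 23 lists, red for called higher, blue for called lower and grey for not called, with a black bar at the list median and a dotted line at the median of all genes, 0.19. Blood and endothelial lists lie to the right, while epithelial adhesion and pluripotency lie to the left, with list medians of -2.43 and -3.41.

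Genes of the primitive streak fell more often than they rose. Of 23 genes of the streak and early mesoderm, 2 rose and 10 fell, against background shares of 19.3% and 17.3% (list median -1.01). The study chose Mixl1, Lhx1, Evx1 and Gsc from arrays of the series, so theirs is not independent evidence. Nodal, the TGF-beta ligand that induces the streak, had 272 and 422 in CD41 positive cells, against 4149 and 4098 in CD41 negative cells (log2 fold change -3.58, standard error 0.21, adjusted p = 2.70e-09). Eomes, a T-box factor of the streak, had 282 and 630.3 in CD41 positive cells, against 3105 and 3092 in CD41 negative cells (log2 fold change -2.86, standard error 0.27, adjusted p = 5.06e-07). Fgf8 had 314 and 489.8 in CD41 positive cells, against 2379 and 2247 in CD41 negative cells (log2 fold change -2.54, standard error 0.19, adjusted p = 3.29e-08), and the 3 genes did not overlap between the sorts. Gsc fell by 2.56, Sp5, a target of Wnt signalling, by 2.15 and Foxc1 by 1.76 on the log2 scale. Foxc1 had 9.06 and 51.4 in CD41 positive cells, against 84.7 and 103 in CD41 negative cells, and its call was lost without CD41 positive replicate 1 (adjusted p = 0.279), CD41 negative replicate 1 (adjusted p = 0.0619) or CD41 negative replicate 2 (adjusted p = 0.115). The 2 that rose were Hand1 and Foxf1, factors of extraembryonic and lateral mesoderm, by 1.38 and 1.42 on the log2 scale, named after their values were seen. Without CD41 negative replicate 2, 1 streak gene was called higher.

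Cardiac genes changed in both directions. Of 18, 4 rose and 2 fell, against background shares of 19.3% and 17.3%. Myl7, the atrial myosin light chain, had 289 and 327 in CD41 positive cells, against 13 and 18.2 in CD41 negative cells (log2 fold change 3.87, standard error 0.18, adjusted p = 2.13e-10). Hand2, a factor of heart and limb mesenchyme, had 117 and 133 in CD41 positive cells, against 3.68 and 3.94 in CD41 negative cells (log2 fold change 3.74, standard error 0.37, adjusted p = 8.92e-07). Tnni1, slow skeletal troponin I, had 376 and 246 in CD41 positive cells, against 13.1 and 42.2 in CD41 negative cells (log2 fold change 3.35, standard error 0.62, adjusted p = 5.14e-04). Of the defining markers of this list, Myl7 passed the test, while Tnnt2 and Nkx2-5 did not. Tnnt2, cardiac troponin T, had 4.86 and 31.5 in CD41 positive cells, against 1.98 and 23 in CD41 negative cells, with overlap. Nkx2-5, a factor of cardiac precursors, had 78.5 and 101 in CD41 positive cells, against 70.8 and 68.3 in CD41 negative cells. Gata4, a GATA factor of heart and endoderm, rose by 1.35 on the log2 scale. Myh6, alpha cardiac myosin, had 21.8 and 31.4 in CD41 positive cells, against 296 and 295 in CD41 negative cells and fell by 3.23, and Actc1, cardiac actin, fell by 0.80 on the log2 scale.

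Of 22 smooth muscle and mesenchyme genes, 3 rose and 7 fell, against background shares of 19.3% and 17.3% (list median -0.58). Tagln, transgelin, had 177 and 424 in CD41 positive cells, against 1197 and 1146 in CD41 negative cells (log2 fold change -2.07, standard error 0.26, adjusted p = 1.21e-05). Cnn1, calponin, fell by 1.96, Thy1 by 1.56 and Tpm2, tropomyosin 2, by 1.53 on the log2 scale. Without CD41 positive replicate 1 the calls of Cnn1 (adjusted p = 0.0749) and Thy1 (adjusted p = 0.0754) were lost, and 4 members were called lower. Cdh11, a defining marker of mesenchyme, had 119.8 and 127 in CD41 positive cells, against 317 and 399 in CD41 negative cells (log2 fold change -1.48, standard error 0.23, adjusted p = 1.04e-04), and Col1a1, the other, had 5.87 and 11.8 in CD41 positive cells, against 9.59 and 30.0 in CD41 negative cells and did not pass (adjusted p = 0.402). Fn1, fibronectin, went the other way, with 22090.4 and 24243 in CD41 positive cells, against 7199 and 6559 in CD41 negative cells (log2 fold change 1.75, standard error 0.12, adjusted p = 9.40e-09), although its other probe set was called lower. Col1a2 and Col3a1, collagen chains of connective tissue, were the other 2 that rose, by 0.61 and 2.19 on the log2 scale, and Col3a1 was not called without CD41 positive replicate 1 (adjusted p = 0.0594) or CD41 negative replicate 1 (adjusted p = 0.0767).

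Basement membrane genes split. Of 12, 4 rose and 4 fell, against background shares of 19.3% and 17.3%. Col4a2, a chain of type IV collagen, had 1539 and 3419.6 in CD41 positive cells, against 213 and 215 in CD41 negative cells (log2 fold change 3.39, standard error 0.24, adjusted p = 1.64e-08). Col4a1, its partner chain, had 1785 and 4644 in CD41 positive cells, against 645 and 578 in CD41 negative cells (log2 fold change 2.23, standard error 0.28, adjusted p = 1.16e-05). Sparc, a collagen binding matrix protein, had 7675 and 17614 in CD41 positive cells, against 1837 and 1724 in CD41 negative cells (log2 fold change 2.70), and in all 3 genes CD41 positive replicate 2 was far above its duplicate. Lama4, the laminin alpha chain of vessels, rose by 3.80. Lamb1, a laminin chain of the early embryo, had 496 and 1015 in CD41 positive cells, against 3790.1 and 3454 in CD41 negative cells (log2 fold change -2.34, standard error 0.22, adjusted p = 4.06e-07). Nid2, nidogen 2, had 197 and 479 in CD41 positive cells, against 2837 and 3138 in CD41 negative cells (log2 fold change -3.25, standard error 0.27, adjusted p = 1.17e-07), both lower in CD41 positive cells. The other 2 that fell, Lama5 and Lamc1, are laminin chains too, named after their values were seen.

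All 15 genes of epithelial adhesion fell, against a background share of 17.3%, from -0.54 to -3.87 on the log2 scale (list median -2.43). Cdh1, E-cadherin, had 806 and 2157 in CD41 positive cells, against 10908 and 11393 in CD41 negative cells (log2 fold change -3.07, standard error 0.28, adjusted p = 3.68e-07). Epcam, an epithelial adhesion molecule that ES cells carry, had 271 and 1400.3 in CD41 positive cells, against 8497 and 8524 in CD41 negative cells (log2 fold change -3.77, standard error 0.42, adjusted p = 3.42e-06). Esrp1, the splicing factor of epithelia, had 109 and 230.2 in CD41 positive cells, against 2529 and 2270.5 in CD41 negative cells (log2 fold change -3.87, standard error 0.23, adjusted p = 3.28e-09). The CD41 negative duplicates were nearly equal in each, whereas CD41 positive replicate 2 was far above its duplicate. Grhl2, a grainyhead factor of epithelia, fell by 3.10, Cldn7, a claudin of tight junctions, by 2.62 and Cldn4 by 2.84 on the log2 scale. Cldn4 was not called without CD41 negative replicate 2. No other probe set of Grhl2 was called, and their log2 fold changes ran from -1.96 to 0.18.

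Pluripotency genes fell, and theirs was the lowest median of the 24 lists. Of 23 measured, 22 fell and none rose, against background shares of 17.3% and 19.3% (list median -3.41). Tbx3 was the exception (log2 fold change 0.05, adjusted p = 0.913). Klf2 had been chosen by the study from arrays of the series. Nanog, which holds ES cells in the undifferentiated state, had 306 and 629 in CD41 positive cells, against 11949 and 12573 in CD41 negative cells (log2 fold change -4.78, standard error 0.24, adjusted p = 3.96e-10). Sox2 had 217 and 643 in CD41 positive cells, against 10563 and 11005 in CD41 negative cells (log2 fold change -4.83, standard error 0.30, adjusted p = 4.56e-09). Pou5f1, which encodes OCT4, had 464 and 2200.1 in CD41 positive cells, against 5403 and 6014 in CD41 negative cells (log2 fold change -2.49, standard error 0.44, adjusted p = 3.19e-04). No CD41 positive array reached a CD41 negative one, but the CD41 positive duplicates of Pou5f1 lay far apart. Zfp42, the ES cell marker REX1, had 181 and 296 in CD41 positive cells, against 6356 and 7452 in CD41 negative cells (log2 fold change -4.86, standard error 0.23, adjusted p = 2.32e-10). Fgf4, a growth factor of the inner cell mass under the control of OCT4 and SOX2, had 13.9 and 19.8 in CD41 positive cells, against 1179 and 1141 in CD41 negative cells (log2 fold change -5.69, standard error 0.25, adjusted p = 1.02e-10). Another probe set of Fgf4 was called lower (log2 fold change -4.93), and those at -1.45 and 0.90 were not called. Dppa2 fell by 4.99 and Lefty1, a Nodal inhibitor, by 4.77 on the log2 scale. The summed signal of the list was 15493 and 28277 in CD41 positive cells, against 137135 and 136928 in CD41 negative cells.

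Of 16 neuroectoderm genes, 8 fell and none rose, against background shares of 17.3% and 19.3% (list median -1.34). Sox11 had been chosen by the study from arrays of the series. Pou3f1, a POU factor of the epiblast and early neural plate, had 73.5 and 137 in CD41 positive cells, against 1597 and 1636 in CD41 negative cells (log2 fold change -3.93, standard error 0.25, adjusted p = 6.35e-09). Otx2, of epiblast and forebrain, had 298 and 774 in CD41 positive cells, against 5212 and 5575 in CD41 negative cells (log2 fold change -3.47, standard error 0.28, adjusted p = 1.06e-07). Fgf5, a marker of the epiblast, had 162 and 368 in CD41 positive cells, against 1607 and 1859 in CD41 negative cells (log2 fold change -2.79, standard error 0.47, adjusted p = 2.06e-04). Crabp2, which binds retinoic acid, fell by 3.03, Sox11 by 2.49 and Zic2 by 1.66 on the log2 scale. The defining neural markers did not pass the test. Sox1 had 5.07 and 27.6 in CD41 positive cells, against 64.5 and 58.7 in CD41 negative cells, and it was called lower without CD41 positive replicate 2 (adjusted p = 0.0473). Pax6 had 64.4 and 79.2 in CD41 positive cells, against 98.7 and 85.4 in CD41 negative cells.

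Of 17 endoderm genes, 3 rose and 5 fell, against background shares of 19.3% and 17.3%, and the list median was -0.11. Sox17, a member, had been chosen by the study from arrays of the series. Foxa2, a factor of endoderm and the anterior streak, had 233 and 209.6 in CD41 positive cells, against 1005 and 952 in CD41 negative cells (log2 fold change -2.12, standard error 0.23, adjusted p = 2.24e-06). Trh, thyrotropin-releasing hormone, had 815 and 1633 in CD41 positive cells, against 5342 and 5638 in CD41 negative cells (log2 fold change -2.24, standard error 0.22, adjusted p = 7.00e-07). The probe sets that stand for Afp and Ttr, which define yolk sac endoderm, were under 34 on every array and did not pass. Another probe set of Ttr was called higher, with 124 and 17.4 in CD41 positive cells, against 8.68 and 3.93 in CD41 negative cells. Apoe, apolipoprotein E, rose by 1.38 at 10655 and 14998 in CD41 positive cells, against 4408 and 5339 in CD41 negative cells, and Amn, of the absorptive endoderm, fell by 2.93 on the log2 scale. Dab2 and Rbp4, named after their values were seen, were the other 2 that fell, and 3 members were called lower without CD41 negative replicate 2. The other 2 that rose were Apob, at 126 and 56.6 in CD41 positive cells, against 36.2 and 6.05 in CD41 negative cells, and Spink1, at 204 and 370.0 in CD41 positive cells, against 81.7 and 116 in CD41 negative cells. Apob was not called without CD41 positive replicate 1 (adjusted p = 0.162) or CD41 negative replicate 2 (adjusted p = 0.282), nor Spink1 without CD41 positive replicate 2 (adjusted p = 0.0643) or CD41 negative replicate 1 (adjusted p = 0.0548).

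BMP and Notch genes moved in both directions. Of 21 BMP genes, 9 rose and 8 fell, against background shares of 19.3% and 17.3%. The ligand Bmp4 had 1379.9 and 2038 in CD41 positive cells, against 458 and 498 in CD41 negative cells (log2 fold change 1.80, standard error 0.17, adjusted p = 7.17e-07). The ligand Bmp2 had 803 and 899 in CD41 positive cells, against 233 and 230.5 in CD41 negative cells (log2 fold change 1.85, standard error 0.17, adjusted p = 2.87e-07). Smad6, which inhibits the pathway, had 1086 and 1871 in CD41 positive cells, against 194 and 208 in CD41 negative cells (log2 fold change 2.79, standard error 0.23, adjusted p = 8.88e-08). All 3 rose without overlap, and Acvrl1, the endothelial receptor ALK1, rose by 3.38 on the log2 scale. Id2 and Id4, helix-loop-helix inhibitors that BMP signals induce, fell by 1.59 and 1.84 on the log2 scale. No other probe set of Id2 was called, and their log2 fold changes were -0.33 and 0.23. Without CD41 positive replicate 1 or without CD41 negative replicate 1, 5 BMP genes were called lower. Of 16 Notch genes, 2 rose and 7 fell, against the same background shares of 19.3% and 17.3%. The ligand Jag1 had 231 and 289 in CD41 positive cells, against 1515 and 1609 in CD41 negative cells (log2 fold change -2.57, standard error 0.16, adjusted p = 5.29e-09). Rbpj, the DNA binding effector of the pathway, had 888 and 829 in CD41 positive cells, against 2394 and 2443 in CD41 negative cells (log2 fold change -1.49, standard error 0.12, adjusted p = 1.30e-07), and in both the duplicates lay close together. Jag2 fell by 1.63 and the target Hes1 by 1.72, while the target Hey2 rose by 2.13 and the feedback inhibitor Nrarp by 1.66 on the log2 scale. Without CD41 positive replicate 1, 5 Notch genes were called higher instead of 2.

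The CD144 sort of the same day shares no array with the CD41 sort, so the 2 effects could be set side by side. Of all 45037 probe sets, 4275 were called higher and 4748 lower in the CD144 sort. Counted by gene, the CD144 shares were 13.8% and 10.4%. Of the probe sets called higher in CD41 positive cells, 2717 (44.8%) were also higher in CD144 positive cells, which is 63.6% of the 4275 raised there. Of those called lower, 3185 (44.6%) were also lower, which is 67.1% of 4748. The hybridisation controls were raised on the positive arrays of both sorts, by 1.38 and 1.77 on the log2 scale. The part of this in the shared calls was not tested. The calls were opposite in 48 probe sets higher and 190 lower in CD41 positive cells. The difference between the CD41 effect and the CD144 effect was called for 2532 probe sets (5.62%), 989 higher (2.2%) and 1543 lower (3.43%). When each array was centred on its median, the split was 1180 higher and 986 lower. By gene, 3.68% were called higher and 5.62% lower, together 9.31%. The count of probe sets depended on single arrays, positive and negative. It was lowest with a negative array of either sort left out, and it rose only without CD41 positive replicate 2.

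The fall of the pluripotency genes was larger in the CD41 sort. In the difference, 22 of 23 were called lower and 1, Tbx3, higher. In the CD144 sort alone, 9 of 23 rose and 7 fell, where 13.8% of all genes rose and 10.4% fell. Zfp42 averaged 239 ± 81.2 in CD41 positive cells and 6904 ± 775 in CD41 negative cells (SD, n = 2 each), with 2534 ± 16.3 in CD144 positive cells and 1135 ± 22.7 in CD144 negative cells (difference of the log2 fold changes -6.01, standard error 0.33, adjusted p = 9.26e-09). Fgf4 averaged 16.8 ± 4.17 in CD41 positive cells and 1160.1 ± 27.1 in CD41 negative cells, with 396 ± 23.2 in CD144 positive cells and 198 ± 26.5 in CD144 negative cells (difference -6.67, adjusted p = 7.98e-09). Both genes were lowest in CD41 positive cells and highest in CD41 negative cells among these 4 populations, and in the CD144 sort they lay in between. The negative populations thus differed as well, with 6904 in CD41 negative and 1135 in CD144 negative cells for Zfp42, and 1160.1 and 198 for Fgf4. The difference of the effects includes this gap, so it is not a comparison of the positive cells alone. Nanog fell in both sorts, and more in the CD41 sort (difference -3.18, adjusted p = 1.41e-05). Epithelial genes gave a like picture, with 10 of 15 lower in the difference and none higher, and Cdh1 had a log2 fold change of 0.14 in the CD144 sort.

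The globins separated the sorts in the other direction. Hba-x averaged 36552 ± 6138 in CD41 positive cells and 52.2 ± 12.1 in CD41 negative cells, with 225 ± 15.2 in CD144 positive cells and 139 ± 51.4 in CD144 negative cells (difference 8.58, standard error 0.40, adjusted p = 1.67e-09). Hbb-bh1 rose in both sorts, by 7.70 in the CD41 sort and 1.70 in the CD144 sort on the log2 scale (difference 6.0, adjusted p = 7.98e-09). Of 15 heme genes, 9 were higher in the difference and none lower. Of 30 blood transcription factors, 17 were higher and 1, Bcl11a, lower. The higher ones held Klf1 (5.38, adjusted p = 0.00123), Gata1 (4.27, adjusted p = 7.16e-06), Runx1 (4.22, adjusted p = 9.97e-04) and Tal1 (3.15, adjusted p = 9.88e-07). Erg rose in both sorts with no difference called (difference 0.47, standard error 0.53, adjusted p = 0.74), and so did Mef2c (difference -0.12, standard error 0.56, adjusted p = 0.952). Megakaryocyte genes rose in both sorts too, 18 of 26 with CD41 and 13 with CD144, and P2rx1, Fermt3 and Stxbp2 were higher in the difference.

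Endothelial genes rose in 27 of 28 cases in each sort, and the difference was called lower for 5 and higher for none. The 5 genes, named after their values were seen, were Tek (-2.10, adjusted p = 0.00194), Mmrn2 (-2.67), Nos3 (-1.93), Cldn5 (-1.89) and Rasip1 (-1.39). Tek, the angiopoietin receptor, averaged 1559 ± 417 in CD41 positive cells and 119.7 ± 38.5 in CD41 negative cells, with 2086 ± 172 in CD144 positive cells and 33.7 ± 11 in CD144 negative cells. For Tie1 no difference was called (difference 0.41, standard error 0.48, adjusted p = 0.749). Of 23 streak and mesoderm genes, 10 fell in the CD41 sort and 15 in the CD144 sort, and in the difference 7 were higher and 1, Nodal, was lower (-2.09, adjusted p = 2.97e-04). Myl7 (4.33, adjusted p = 2.29e-08) and Hand2 (4.50, adjusted p = 3.44e-05) rose in the CD41 sort and were not called in the CD144 sort, and their differences were called.

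**Figure D5:**
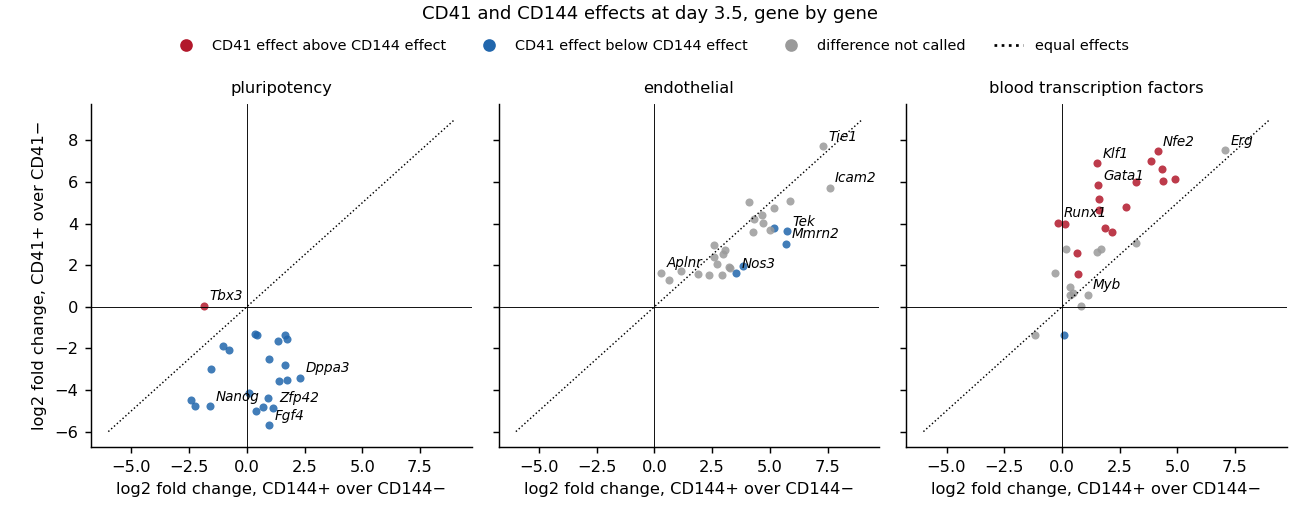
Log2 fold change of CD41 positive over CD41 negative cells (vertical axis) against that of CD144 positive over CD144 negative cells (horizontal axis) for the genes of 3 lists, coloured by the call of the difference, with a dotted line where both are equal. Of the pluripotency genes 22 of 23 lie below the line with a called difference, 5 of 28 endothelial genes do, and 17 of 30 blood transcription factors lie above it with a called difference.

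Some of the called probe sets with the largest changes belonged to genes outside the lists. Tspan32, a tetraspanin of blood cells, had 3113 and 2119.6 in CD41 positive cells, against 4.93 and 3.89 in CD41 negative cells (log2 fold change 7.95, standard error 0.60, adjusted p = 4.05e-08), while its other probe set had 509 and 438 in CD41 positive cells, against 178 and 94.1 in CD41 negative cells, and did not pass. Downward, Enpp3, an ectonucleotidase, had 1.71 and 4.89 in CD41 positive cells, against 702 and 800.0 in CD41 negative cells (log2 fold change -6.36, standard error 0.34, adjusted p = 8.23e-10). Other probe sets of Enpp3 were called lower (log2 fold changes -4.03 and -3.18) or not called (0.91 and 1.19). Dmrt1, a factor of the germ line that ES cells also carry, had 7.14 and 28.7 in CD41 positive cells, against 1259 and 1283 in CD41 negative cells. Mymx, known as a fusogen of muscle cells, had 10.1 and 15.9 in CD41 positive cells, against 1276 and 1403 in CD41 negative cells. Atp1b1, a subunit of the sodium pump, fell at 4 of 5 probe sets and Gja1, connexin 43, at 5 of 6. Phf21a, a chromatin reader, fell by 5.53 at a probe set with 3.18 and 3.40 in CD41 positive cells, against 489 and 368 in CD41 negative cells, and by 1.17 to 1.27 at its other 3. Slc2a3, a glucose transporter, showed how far probe sets of 1 gene can part: 2 were lower by 6.11 and 6.05, with 11.2 and 133 in CD41 positive cells, against 2427 and 4668 in CD41 negative cells for the lower of these, yet the probe set that stands for the gene had 25012 and 27477 in CD41 positive cells, against 22677 and 20712 in CD41 negative cells, and was not called. Of 9010 genes with several probe sets, 258 (2.86%) were called in both directions.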

How the data were processed

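Gene expression was measured in 8 sorted cell populations with 2 arrays each. The deposited values are MAS5 signal intensities of 45101 probe sets on Affymetrix 3' mouse arrays, on a linear scale, and per the labels the authors scaled each array to a common trimmed mean that leaves out the values below percentile 2 and above percentile 98. The version of MAS5 is not given in the sources used here, nor is a scan date or other batch. No present or absent calls were used, so whether a signal stood above background is not known, also for signals well above 6.02. The median of the values on the 4 compared arrays was 85.6. Percentile 10 was 9.20 on CD41 positive replicate 1 and between 5.02 and 5.70 on the other compared arrays.

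The 64 control probe sets were set aside and 45037 were tested. The value 6.02, percentile 10 of the signals, was added before log2. One model of all 16 arrays was fitted in limma 3.58.1 (R 4.3.3) with an intensity trend, moderated tests were two-sided, and the Benjamini-Hochberg adjustment ran over all probe sets. The difference between sorts was a contrast of the same model. The computation was tested on simulated data. Tables and plots were made in Python 3.11.15 with pandas 2.3.3, scipy 1.17.1 and matplotlib 3.10.9.

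Probe sets were named from the annotation of the array, updated to current symbols through RefSeq where possible: 34945 had 1 symbol, 932 several and 9160 none, and 34884 matched RefSeq. Of 469 genes in 24 lists, 448 were measured. The genes named are the sort markers, the 6 called genes of each list that changed most (fewer where fewer were called), all globins and blood transcription factors, the defining markers of other cell types, and, in each direction, the 10 most changed among called probe sets of 1 gene that lay above the median signal without overlap. The members and lists were chosen with earlier results of these data known. Promoters and their coordinates came from RefSeq (GRCm38.p6).

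Alternatives were quantile normalization, arrays centred on their medians, offsets of 1 and 32, fits without dim probe sets or of fewer arrays, a replicate block, a robust prior, array weights, the most variable probe set per gene, a bound on the fold, and each array left out in turn. Duplicates came from separately conducted experiments with 1 ES cell line, and p-values measure the spread between these. With 2 arrays a population, their number limits the precision.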

Additional observations from a re-analysis of the deposited data

Results flagged for a closer look

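The hybridisation controls, which are no transcripts of the cells, were higher by 1.38 on the log2 scale on the CD41 positive than on the CD41 negative arrays. Over all 16 arrays of the series they ranged from 6481 to 11175 on those of positive cells and from 2134 to 3022 on those of negative cells, with no overlap.

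Some genes were called in opposite directions in the CD41 and CD144 sorts, and the difference between the effects was called as well. Lower in CD41 positive and higher in CD144 positive cells were the pluripotency genes Fgf4 (difference of the log2 fold changes -6.67), Zfp42 (-6.01), Dppa3 (-5.72), Dnmt3l (-5.25), Esrrb (-4.97), Utf1 (-4.45), Klf4 (-3.28), Dppa4 (-3.03) and Klf2 (-2.96). The same held for the contractile and mesenchymal genes Myh6 (-4.31), Thy1 (-3.51), Tagln (-2.91), Myl9 (-2.78), Acta2 (-1.86) and Actc1 (-1.83). It held too for Zic2 (-2.90), a zinc finger factor of neuroectoderm, Prkcb (-2.44), the glucose transporter Slc2a1 (-1.69) and the keratin Krt18 (-1.68). Higher in CD41 positive and lower in CD144 positive cells were Msx2 (3.03), a target of BMP signals, Myc (2.91), the ligand Bmp2 (2.59) and Car2 (1.96), a carbonic anhydrase of red cells. Thy1 was not called in the CD41 sort without CD41 positive replicate 1 (adjusted p = 0.0754).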

How the results depend on the processing

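The CD41 comparison called between 10771 and 13763 probe sets under the other normalizations, offsets, filters, priors and fits tried, against 13209. A bound on the fold (the lower end of a 90% interval above 2, unadjusted) gave 5223, 2019 higher and 3204 lower. With 1 array left out the count was 8839 to 11960, with 4014 to 5770 higher and 4825 to 6359 lower, and the lone array was then assumed to vary like the other populations. The lowest count higher, 4014, was without CD41 negative replicate 2. For the difference between the CD41 and CD144 effects, centring on medians gave 1180 higher and 986 lower, the robust prior 1385 (461 higher, 924 lower), the bound on the fold 624 higher, and leaving out an array 1480 to 3613 (502 to 1309 higher, 978 to 2304 lower). The cause of these shifts was not tested. Of 186 named values, 16 lost their call when only the 4 compared arrays were fitted, and 7 under the robust prior. Under quantile normalization 1 turned direction: Pcna at -0.071, not called. The samples share only a number between sorts: deviations of same-numbered arrays from their group means correlated at 0.0026 (28 pairs of populations, 0 over 0.1), and a replicate block gave 13313 calls in the CD41 comparison and 2611 in the difference, with no named call changed. Where signals were near 6.02, the fold moved with the value added before log2: Hbb-y was 8.86 with 1 added and 6.56 with 32, and Tie1 8.70 and 5.93. With 2 arrays a population, a difference that was not called is not shown to be absent.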

Other observations

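Replication and mitosis genes changed in both directions. Of 21, 5 rose and 3 fell, against background shares of 19.3% and 17.3%, with a list median of -0.05. Mki67, the proliferation antigen, had 8658 and 7737 in CD41 positive cells, against 6125 and 5534 in CD41 negative cells (log2 fold change 0.49, adjusted p = 0.00448). Cdk1, the kinase that drives mitosis, had 11792 and 10665 in CD41 positive cells, against 5781 and 5853 in CD41 negative cells (log2 fold change 0.95, adjusted p = 1.59e-05). Bub1, a checkpoint kinase, had 3678 and 2932 in CD41 positive cells, against 7788 and 7555 in CD41 negative cells (log2 fold change -1.22, adjusted p = 5.42e-06). The sorts did not overlap in these genes. The call of Mki67 was lost without CD41 negative replicate 2 (adjusted p = 0.0678). Pcna, the sliding clamp of replication, had 26336 and 25699.7 in CD41 positive cells, against 19931 and 18260.5 in CD41 negative cells (adjusted p = 0.0302), was not called when any of the 4 arrays was left out, with an adjusted p of up to 0.188, and turned direction under quantile normalization. The counts of this list also depended on the scaling, with 8 lower under quantile normalization and 1 lower with arrays centred on their medians. Without CD41 negative replicate 1, 1 was called lower, and without CD41 negative replicate 2, 3 were called higher and 1 lower.

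Genes of glycolysis and the hypoxia response fell more often than they rose. Of 21, 5 rose and 9 fell, against background shares of 19.3% and 17.3% (list median -0.42). Hk2, the hexokinase that hypoxia induces, had 1632 and 1345 in CD41 positive cells, against 5525 and 4859.9 in CD41 negative cells (log2 fold change -1.80, standard error 0.14, adjusted p = 6.71e-08). Pdk1, which holds pyruvate back from mitochondria, had 1827 and 2028 in CD41 positive cells, against 6027 and 6777 in CD41 negative cells (log2 fold change -1.73, standard error 0.14, adjusted p = 6.08e-08). P4ha1, a collagen prolyl hydroxylase, had 433 and 400.4 in CD41 positive cells, against 1377 and 1341 in CD41 negative cells (log2 fold change -1.69, standard error 0.18, adjusted p = 1.89e-06). Both duplicates of CD41 positive cells lay below those of CD41 negative cells in all 3. Pfkp, platelet phosphofructokinase, fell by 1.40 on the log2 scale, whereas Hk1, the hexokinase of red cells, had 1900.4 and 2433 in CD41 positive cells, against 753 and 733 in CD41 negative cells and rose by 1.53.

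Immediate early and stress genes changed in both directions, with 6 of 20 higher and 7 lower (list median 0.17). The background shares were 19.3% and 17.3%. Their summed signal was 45081 and 73868 in CD41 positive cells, against 49203 and 52666 in CD41 negative cells. Fosb had 157 and 222 in CD41 positive cells, against 19.5 and 27.7 in CD41 negative cells (log2 fold change 2.72, standard error 0.59, adjusted p = 0.00191). Jun had 2422 and 5189 in CD41 positive cells, against 627 and 894 in CD41 negative cells (log2 fold change 2.23, standard error 0.28, adjusted p = 1.11e-05). Both rose, and CD41 positive replicate 2 was the higher of its pair. The heat shock gene Hspa1b had 229 and 151 in CD41 positive cells, against 814 and 812 in CD41 negative cells (log2 fold change -2.09, standard error 0.23, adjusted p = 2.25e-06).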
